A study of Homo sapiens with 6 samples.

Results

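Matrix metalloproteinases (MMPs), ADAMTS proteases and the tissue inhibitors of metalloproteinases (TIMPs) were followed in 2 human ovarian carcinoma cell lines. The members were chosen with earlier results of these data known, by a rule on symbols alone. They were all genes whose array annotation symbol was MMP or ADAMTS followed only by digits, or TIMP1 to TIMP4. They were 44 of the 19775 genes with a symbol of their own on the array: 22 MMP genes, 18 ADAMTS genes and 4 TIMP genes. Together they had 92 probe sets, 26 of the 44 genes had several, and a gene was represented by its brightest probe set over the 6 arrays.

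Total RNA of the established lines Caov-3 and SKOV-3 was hybridised to 6 Affymetrix U133 Plus 2.0 arrays, 3 of each line. Each line was given the anti-IL-6 antibody siltuximab (CNTO328) for 4 h and then interleukin-6 (IL-6) at 30 ng/ml for 1 h, given IL-6 alone at 30 ng/ml for 1 h, or left untreated. The labels give no dose for siltuximab, and cells with the antibody but no IL-6 were not analysed here. RNA of 3 flasks was pooled for each array and each group had 1 array, so that differences inside a line have no replicate behind them, and precision is limited by how few arrays there are. The series asks how siltuximab alters the response of these cells to IL-6. As lines grown on plastic, they hold none of the stromal cells of a tumour.

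MMPs are zinc-dependent proteases that cut collagens, laminins and other matrix and surface proteins, and most are secreted as inactive precursors that other proteases must activate. ADAMTS proteases are secreted relatives with thrombospondin repeats that cut proteoglycans, procollagens and blood proteins. TIMPs bind the active site of MMPs, and TIMP3 also blocks several ADAM and ADAMTS enzymes. Cytokines and growth factors are known to act on many MMP genes through AP-1 and ETS sites close to the transcription start, and IL-6 acts through STAT3.

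To show what stands in front of genes that the results turn on, the 100 bases before the start of 6 members are printed below from RefSeq (GRCh38.p14), 5′ to 3′ on the gene's strand. Capitals mark an AP-1 motif, a TATA box or an ETS motif found by search. MMP7 and MMP10 are 2 of the 9 neighbouring MMP genes on chromosome 11 that were dim on all arrays, ADAMTS12 had opposite folds with IL-6 in the lines, and TIMP1, ADAMTS3 and ADAMTS6 differed between the lines.
MMP7, chr11:102530748-102530847, minus strand: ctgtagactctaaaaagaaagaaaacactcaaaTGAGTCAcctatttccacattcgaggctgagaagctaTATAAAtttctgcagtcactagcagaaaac
MMP10, chr11:102780629-102780728, minus strand: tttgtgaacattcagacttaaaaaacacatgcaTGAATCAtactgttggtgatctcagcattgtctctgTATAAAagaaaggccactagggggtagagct
ADAMTS12, chr5:33891991-33892090, minus strand: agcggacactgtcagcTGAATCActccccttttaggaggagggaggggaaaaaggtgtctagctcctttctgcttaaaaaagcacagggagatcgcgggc
TIMP1, chrX:47582336-47582435, plus strand: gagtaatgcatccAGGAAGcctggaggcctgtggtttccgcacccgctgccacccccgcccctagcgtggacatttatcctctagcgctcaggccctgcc
ADAMTS3, chr4:72569222-72569321, minus strand: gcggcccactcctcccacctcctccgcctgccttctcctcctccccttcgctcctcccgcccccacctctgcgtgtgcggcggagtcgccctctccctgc
ADAMTS6, chr5:65481921-65482020, minus strand: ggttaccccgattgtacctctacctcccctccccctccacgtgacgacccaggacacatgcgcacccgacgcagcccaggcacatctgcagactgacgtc

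In these windows the AP-1 motif of MMP7 begins 67 bases before the start and its TATA box 30 bases before it, and in MMP10 the distances are 67 and 31 bases. A RefSeq promoter was matched by symbol for 25 of the 44 members, and 250 bases before the start were searched on both strands, the TATA box on the gene's strand only. The AP-1 letters TGANTCA stood in 4 of the 25 (16%: ADAMTS12, MMP7, MMP20 and MMP10), against 6.60% of 27305 promoters in all. The ETS letters AGGAAG stood in 6 of the 25 (24.0%) and in 28.7% of all, and the TATA box letters TATAAA in 6 (24.0%) and in 7.18% of all. The STAT letters TTCNNNGAA stood in 0 of the 25 and in 6.78% of all. A match describes the letters and is not a binding site, and several of the genes are neighbours with related sequences.

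The Caov-3 IL-6 array stood apart in its control probe sets. It had a 5′ to 3′ signal ratio of 0.494 for ACTB, against 0.643 to 0.767 on the other 5, and 887 for the middle of 28S ribosomal RNA, against 2382 to 3307. The labelled cell type was checked with 9 epithelial markers: 6 were at or above the array median on all 6 arrays, while CDH1, KRT19 and MUC16 were so on the 3 Caov-3 arrays and not on the SKOV-3 arrays. Of 11 markers of fibroblasts and endothelium, 9 were at or above the median on no array, and COL1A1 and PECAM1 were so on all 6. Of 9 leukocyte markers 5 were so on no array, among them PTPRC, which defines leukocytes, and CD79A was so on all 6. The arrays had been scaled to a common mean, and the median signal of named probe sets was 102.1 to 121.8.

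Many of the proteases were dim in both lines, while all 4 inhibitors reached the array median on every array. TIMP4 did so only narrowly in SKOV-3, with signals of 124 to 129 beside medians of 103.1 to 110.8. At or above the array median on all 6 arrays stood 6 members, namely MMP9, MMP14 and TIMP1 to TIMP4. Another 13 reached it on some arrays and 25 on none, where the highest signal was 105. Those 25 are 56.8% of the members, beside 34.9% of all 19775 genes, and the 6 on all arrays are 13.6%, beside 48.5% of all genes. Of the 22 MMP genes, 13 were at or above the median on no array, as were 12 of the 18 ADAMTS genes and 0 of the 4 TIMP genes. Signals of different probe sets are not amounts of RNA, so that the order of the genes is that of their signals only. No detection calls were used here, and a gene below the median is not thereby absent.

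**Figure D1:**
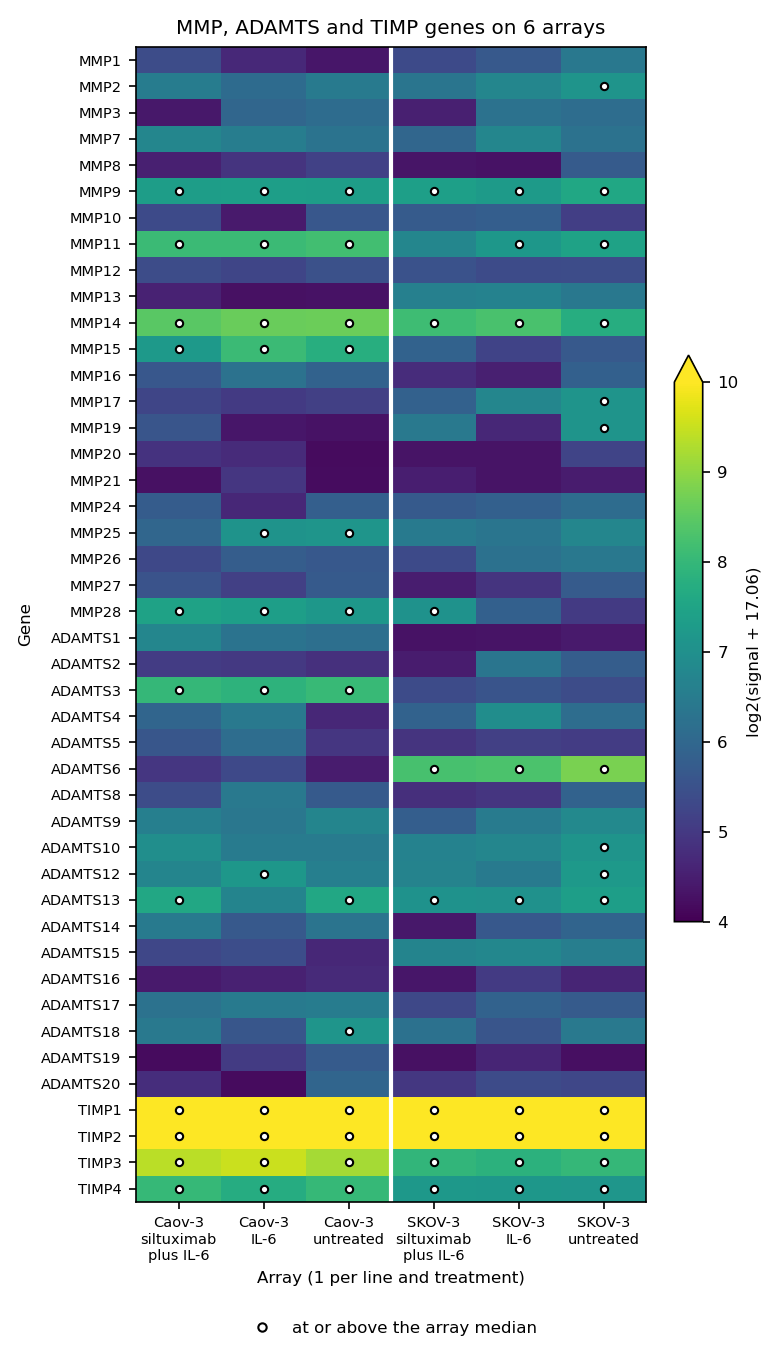
Signal of each member (rows, 1 probe set a gene) on each of the 6 arrays (columns, 1 per line and treatment), as log2 of signal plus 17.06, with a circle where the signal is at or above the array median. The TIMP rows carry circles on all 6 arrays, 25 rows carry none, and colours above 10 on the scale are drawn alike.

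Several groups of proteases were dim. The 3 interstitial collagenases (MMP1, MMP8 and MMP13), which cut fibrillar collagen, the matrilysins MMP7 and MMP26, and MMP3 and MMP10, 2 of the 3 stromelysins, reached the median on no array. MMP1 had signals of 25.3 with siltuximab plus IL-6, 8.97 with IL-6 and 3.68 untreated in Caov-3, against 23.6, 33.8 and 68.2 in SKOV-3, and the ranges overlapped. MMP7, which sheds surface proteins of epithelia, had 91.0, 75.6 and 61.2 in Caov-3, against 45.7, 91.6 and 59.3 in SKOV-3, and no line was higher throughout. In the order of genes along chromosome 11, MMP7, MMP20, MMP27, MMP8, MMP10, MMP1, MMP3, MMP12 and MMP13 follow each other with at most 1 other annotated gene between neighbours, and 0 of these 9 reached the median. All 7 ADAMTS genes that cut proteoglycans such as aggrecan and versican also reached it on no array, among them the neighbours ADAMTS8 and ADAMTS15 on chromosome 11 and ADAMTS1 and ADAMTS5 on chromosome 21.

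The lines were compared in a limma fit to all 6 arrays, with treatment as a block and 2 residual degrees of freedom, on log2 of signal plus 17.06. A gene entered it when at least 2 arrays were at or above their median, which 14 of the 44 members and 12290 genes did. The 3 arrays of a line are 3 treatments and not replicates, so that the fit measures how alike the line difference was under them. Of the 14 members, 8 were higher in Caov-3 and 2 lower at an adjusted p under 0.05, or 71.4%, beside 70.8% of all genes tested (38.6% higher and 32.3% lower). Without the Caov-3 IL-6 array limma also called 8 higher and 2 lower. A share this near to that of all genes is no result about the members as a group. Their 3 arrays of one line lay wholly apart from those of the other in the same 10 members, beside 74.1% of genes in the fit, and in 15 of all 44, beside 53.1% of all genes. The median log2 difference, Caov-3 minus SKOV-3, was 0.64 over the 14 and 0.07 over all genes, and the median size was 0.95 and 0.68. MMP15, MMP25 and ADAMTS3 entered the fit through Caov-3 arrays alone and ADAMTS6 through SKOV-3 arrays alone, so that the filter itself favours a difference there. A difference between lines in bulk RNA does not tell fewer cells with a transcript from less of it per cell.

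**Figure D2:**
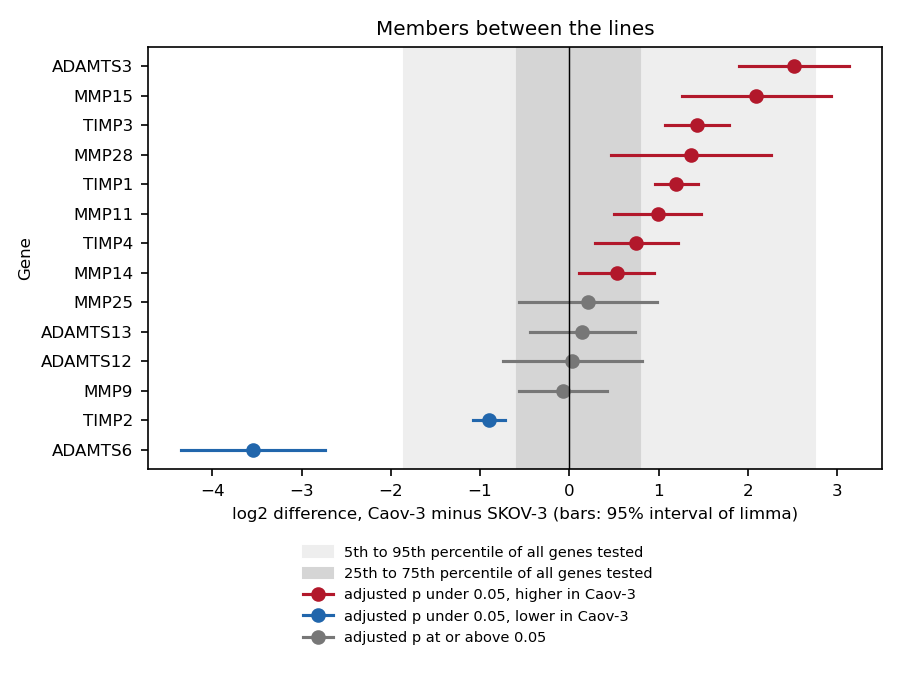
Log2 difference of the 14 tested members, Caov-3 minus SKOV-3, with 95% intervals of the limma fit and with the percentiles of all 12290 genes tested as grey bands. ADAMTS3 at 2.52 and ADAMTS6 at -3.54 lie at the ends, and the intervals of MMP25, ADAMTS13, ADAMTS12 and MMP9 include 0.

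The 4 inhibitors split, with 3 higher and 1 lower in Caov-3. TIMP1, a secreted inhibitor that also binds the precursor of MMP9, had signals of 16077 with siltuximab plus IL-6, 20640 with IL-6 and 18724 untreated in Caov-3, against 8239, 7415 and 8368 in SKOV-3. The lines did not overlap, and all Caov-3 arrays stood higher. The difference was 2.30-fold, or 1.20 ± 0.10 on the log2 scale (SE), with an adjusted p of 4.47e-05 in limma. TIMP2 inhibits MMPs and also takes part, with MMP14, in activating the precursor of MMP2. Its signals were 3209, 3773 and 2960 in Caov-3, against 6154, 6611 and 5790 in SKOV-3. Here all SKOV-3 arrays stood higher, with a log2 difference of -0.90 ± 0.07 (SE) and an adjusted p of 4.00e-05 in limma. This direction rests on the probe set: the dimmest of its 3 gave 1.14 (limma adjusted p 0.000469), and with the mean of all 3 TIMP2 was at -0.20 and not called (limma adjusted p 0.0826).

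TIMP3 stays bound to the matrix after secretion. It had signals of 648, 717 and 570 in Caov-3, against 232, 215 and 236 in SKOV-3, a difference of 2.69-fold that left a wide gap between the lines (log2 1.43 ± 0.15 SE, limma adjusted p 0.000131). TIMP4, a close relative of TIMP2, had 243, 194 and 242 in Caov-3, against 129, 129 and 124 in SKOV-3. Its arrays did not overlap either, at a log2 difference of 0.75 ± 0.20 (SE) and a limma adjusted p of 0.0114. That call was lost without any of 3 arrays, with adjusted p from 0.0501 to 0.0711: the siltuximab plus IL-6 array of either line, and the untreated Caov-3 array.

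**Figure D3:**
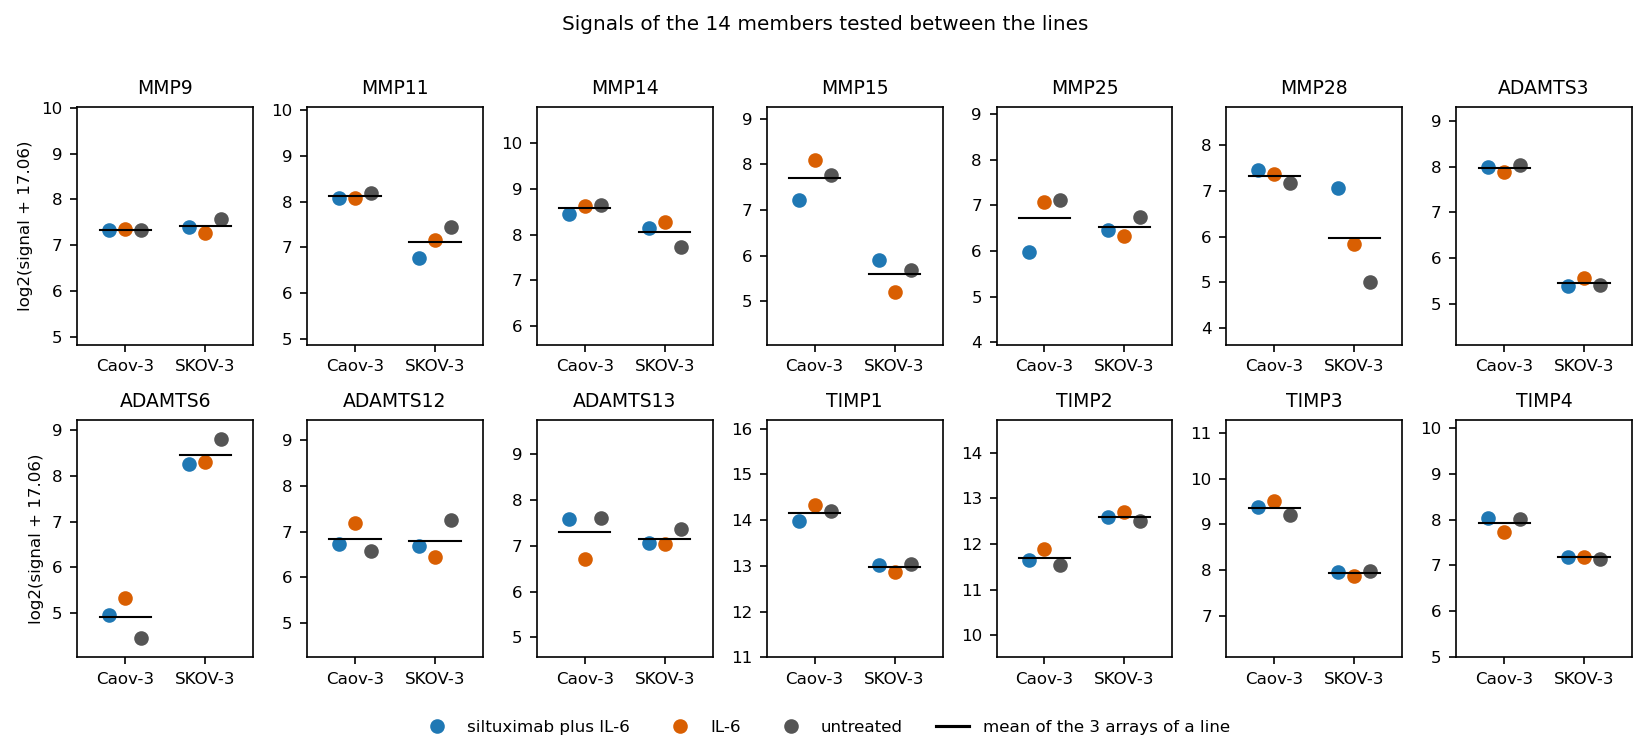
Log2 of signal plus 17.06 of the 14 tested members on the 3 arrays of each line (points, coloured by treatment) with the mean of the line (bar), each panel spanning the same number of log2 units. The lines do not overlap for the 10 members called by limma and overlap for MMP9, MMP25, ADAMTS12 and ADAMTS13.

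Among the membrane-type MMPs, which sit in the plasma membrane and cut matrix beside the cell, MMP14 and MMP15 were higher in Caov-3. MMP14, the enzyme that activates the precursor of MMP2, had signals of 334, 379 and 385 in Caov-3, against 266, 291 and 197 in SKOV-3. The arrays did not overlap, but the difference was small at log2 0.53 ± 0.18 (SE), with a limma adjusted p of 0.0324. It was no longer called without either untreated array (log2 0.34, adjusted p 0.157 without that of Caov-3 and 0.146 without that of SKOV-3) or without either siltuximab plus IL-6 array (0.64, adjusted p 0.05002 without that of Caov-3 and 0.0526 without that of SKOV-3). MMP15, a second activator of that precursor, had 132, 256 and 200 in Caov-3, against 42.5, 20.1 and 34.2 in SKOV-3. Its difference was 4.27-fold, or 2.10 ± 0.35 on the log2 scale (SE, limma adjusted p 0.00141), and all Caov-3 arrays stood higher. MMP15 entered the fit through Caov-3 arrays alone. The second MMP15 probe set, too dim for the fit, gave 0.32, and there the lines overlapped. MMP25, anchored by a lipid, had 46.1, 118 and 122 in Caov-3, against 70.9, 63.6 and 91.0 in SKOV-3, so that the lines overlapped (log2 0.21, 95% interval -0.56 to 0.98).

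Of the secreted MMPs, MMP11 and MMP28 were higher in Caov-3. MMP11, a stromelysin that furin activates inside the cell, had signals of 253, 254 and 273 in Caov-3, against 91.2, 127 and 157 in SKOV-3. The arrays of Caov-3 lay close together and above all of SKOV-3, and the log2 difference was 0.99 ± 0.21 (SE, limma adjusted p 0.00391). MMP28, or epilysin, a protease of epithelia, had 159, 148 and 127 in Caov-3, against 116, 40.3 and 15.3 in SKOV-3. The lowest Caov-3 array came close to the highest SKOV-3 array, and the log2 difference was 1.36 ± 0.38 (SE, limma adjusted p 0.0144). Without the untreated array of either line it was 0.96 and no longer called, with an adjusted p of 0.0799 without that of Caov-3 and of 0.0671 without that of SKOV-3.

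The gelatinases, which cut basement membrane collagen, did not separate the lines by their brightest probe sets. MMP9 had signals of 144, 147 and 144 in Caov-3, against 151, 137 and 175 in SKOV-3. The ranges overlapped, and the log2 difference of -0.07 had a 95% interval from -0.56 to 0.42. MMP2 was not in the fit, with 74.3, 51.1 and 70.6 in Caov-3, against 63.9, 90.3 and 121 in SKOV-3, and its only array at the median was that of untreated SKOV-3. The second MMP2 probe set, also too dim for the fit, had 81.6, 49.0 and 60.8 in Caov-3, against 18.2, 20.9 and 11.5 in SKOV-3. There the lines did not overlap, at a log2 difference of 1.24, while the first probe set gave -0.38 and the third -0.22.

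The 2 members with the largest differences in either direction were both ADAMTS genes, and each was bright in 1 line. ADAMTS3, which removes the N-terminal propeptide of procollagen and processes the lymphatic growth factor VEGF-C, had signals of 237, 219 and 245 in Caov-3, against 24.6, 30.4 and 25.3 in SKOV-3. The log2 difference was 2.52 ± 0.26 (SE), or 5.73-fold on the scale with 17.06 added, with a limma adjusted p of 0.000117. ADAMTS6, related to the fibrillin-binding ADAMTS10, had 14.0, 23.0 and 4.78 in Caov-3, against 290, 296 and 430 in SKOV-3. Its difference was -3.54 ± 0.34 on the log2 scale (SE), that is 11.6-fold higher in SKOV-3, with a limma adjusted p of 8.48e-05. Both genes entered the fit only through the line where they are high, so that the filter itself favours these differences. The added 17.06 is of the size of the lower signals of both genes, which makes these folds smaller than ratios of the signals. ADAMTS13, which cuts von Willebrand factor, and ADAMTS12, which cuts cartilage oligomeric matrix protein, overlapped between the lines, with log2 differences of 0.14 (95% interval -0.45 to 0.73) and 0.03 (-0.74 to 0.81).

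Of the 30 members outside the fit, 5 had lines that did not overlap, beside 18.6% of all genes outside it. ADAMTS1, a protease of versican, had signals of 91.4, 60.9 and 56.1 in Caov-3, against 2.56, 2.92 and 4.41 in SKOV-3. MMP13 had 6.60, 2.12 and 2.62 in Caov-3, against 81.4, 83.7 and 67.7 in SKOV-3. MMP13 is a collagenase and lay higher in SKOV-3, while ADAMTS1 lay higher in Caov-3. The other 3 members without overlap were ADAMTS15 and MMP17, higher in SKOV-3, and ADAMTS17, higher in Caov-3. Of these 5, MMP17 alone reached the median on any array, and none was tested in the fit described here. The second probe set of ADAMTS15 gave a log2 difference of 0.17, and the further ones of ADAMTS17 gave 0.13 and 1.19.

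The probe sets of a gene did not always give the same direction. For TIMP3 all 4 did, with log2 differences of 1.43, 1.82, 1.59 and 2.11. For TIMP2 the dimmest of 3 had signals of 1153, 1373 and 1289 in Caov-3, against 524, 546 and 630 in SKOV-3. It was thus higher in Caov-3 by log2 1.14, with an adjusted p of 0.000469 in a limma fit over 23169 probe sets, while the other 2 gave -0.90 and -0.85 with adjusted p of 0.000221 and 0.000567. All 3 were far above the median on every array, so the direction of TIMP2 between the lines depends on the probe set. For MMP14 the second probe set gave -0.26 (adjusted p 0.547), and in that fit the brightest had an adjusted p of 0.0514. ADAMTS6 had a second probe set at -1.75 and another at 0.32, and MMP28 had further ones at 1.19, -0.06, -0.34 and 0.17, all of which were too dim for the fit. Which part of the transcripts each probe set reads was not analysed here.

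**Figure D4:**
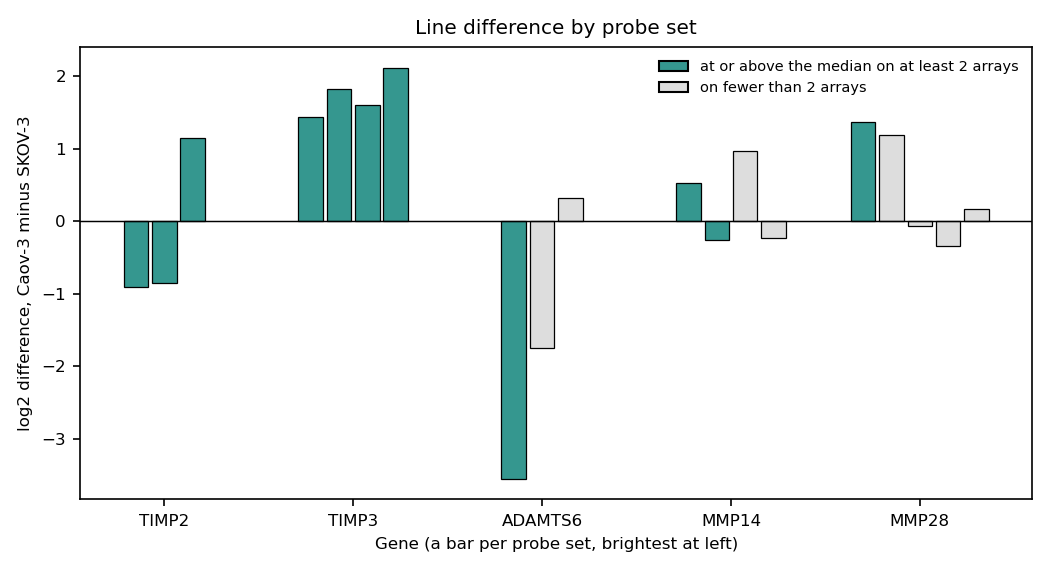
Log2 difference, Caov-3 minus SKOV-3, of every probe set of 5 members, the brightest at the left, with grey bars for probe sets at or above the median on fewer than 2 arrays. TIMP3 points one way in all 4, and TIMP2 has 1 bar at 1.14 beside bars at -0.90 and -0.85.

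Treatment effects common to both lines were tested in the same limma fit, with the line as a block. No member was called at an adjusted p under 0.05 for IL-6 against untreated, for siltuximab plus IL-6 against IL-6, or for siltuximab plus IL-6 against untreated, beside 0% of 12290 genes in each. At an unadjusted p under 0.05 there were 1, 0 and 1 members, and 1182, 398 and 705 of all genes. The member with IL-6 was TIMP2 at log2 0.27 ± 0.09 (SE), higher in both lines by its brightest probe set (limma adjusted p 0.446). Its second probe set gave 0.26 in Caov-3 and 0.03 in SKOV-3, and its dimmest 0.09 and -0.20. The member with siltuximab plus IL-6 against untreated was MMP28 at 1.17 ± 0.46 (SE), with an adjusted p of 0.860 in limma. Leaving out 1 array at a time gave 0.45 to 1.89 for MMP28, with 0.45 without the SKOV-3 siltuximab plus IL-6 array, 0.57 without the SKOV-3 untreated array, 1.76 without the Caov-3 untreated array and 1.89 without the Caov-3 siltuximab plus IL-6 array. The intervals show how much could have been missed: for IL-6 against untreated, TIMP1 had -0.02 with a 95% interval from -0.31 to 0.28, and MMP15 had -0.07 with one from -1.10 to 0.96. Without the Caov-3 IL-6 array the 3 comparisons again called 0 members. Any pair of these comparisons shares arrays.

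Within a line, 1 array was set against 1 array with no test, and a member was counted when its signal differed at least 2-fold on the scale with 17.06 added and its higher array reached the median. Few members did. In Caov-3 with IL-6 against untreated it was 1 of 14, beside 3.91% of all genes. ADAMTS18, an enzyme whose substrates are little known, had a signal of 31.3 with IL-6 and 123 untreated, a log2 fold of -1.54, and its second probe set gave -1.11. The next lower were ADAMTS13 at -0.89, with 88.0 and 177, and TIMP4 at -0.30. The highest were ADAMTS12 at 0.60, with 129 and 78.9, then TIMP2 at 0.35 and MMP15 at 0.33. The second MMP15 probe set gave -1.72. The IL-6 array here is the one with the low ACTB ratio and 28S signal, and the part of these in the folds was not tested.

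With siltuximab plus IL-6 against IL-6 in Caov-3, 1 of 13 members was at least 2-fold apart, beside 3.09% of all genes. MMP25 had 46.1 with siltuximab plus IL-6 and 118 with IL-6 (log2 -1.10), but its second probe set gave 0.64. MMP15 followed at -0.87, with 132 and 256, and ADAMTS12 at -0.47, while their second probe sets gave 0.55 and 0.08. ADAMTS13, low on the IL-6 array, was highest at 0.88, with 176 and 88.0, while its second probe set gave -0.03 here and -0.07 for IL-6 against untreated. TIMP4 stood at 0.30 and ADAMTS3 at 0.10. Against untreated cells, siltuximab plus IL-6 gave 1 of 13, beside 1.06% of all genes, again MMP25 with 46.1 and 122 (log2 -1.14, second probe set 0.10). ADAMTS18 at -0.72 and MMP15 at -0.54 (second probe set -1.17) were the next lower. MMP28 at 0.29, TIMP3 at 0.18 and TIMP2 at 0.12 were the highest.

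In SKOV-3 with IL-6 against untreated, 1 of 14 members was at least 2-fold apart, beside 2.08% of all genes. MMP19, which cuts basement membrane proteins, had signals of 69.3 with siltuximab plus IL-6, 8.51 with IL-6 and 121 untreated in SKOV-3, and 30.9, 3.39 and 2.45 in Caov-3. It reached the median on the untreated SKOV-3 array only. Its fold with IL-6 was -2.43, while its second probe set, at 13.8 and 15.8, gave -0.09. ADAMTS12 followed at -0.81, with 70.1 and 135, and ADAMTS6 at -0.51, with 296 and 430. MMP14 was highest at 0.53, with 291 and 197, followed by TIMP2 at 0.19 and TIMP4 at 0.04. The further MMP14 probe sets disagreed in direction, at -0.56, -0.53 and 1.13. The untreated SKOV-3 array had 14 members at or above its median, the IL-6 array 9 and the siltuximab plus IL-6 array 9.

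MMP28 was the member with the largest fold upwards in SKOV-3, at 116 with siltuximab plus IL-6, 40.3 with IL-6 and 15.3 untreated. Against IL-6 it had log2 1.22 and was the only 1 of 10 members at least 2-fold apart, beside 1.04% of all genes. MMP11 at -0.41, MMP14 at -0.12 and TIMP2 at -0.10 were the lowest, and TIMP1 at 0.15 and MMP9 at 0.13 came after MMP28. Against untreated cells 2 of 15 were at least 2-fold apart, beside 1.88% of all genes: MMP28 at 2.04, and MMP17, a membrane-type MMP with a lipid anchor, at -1.23 with 41.4 and 120. The other 4 probe sets of MMP28 gave -0.13, -0.49, 1.46 and -0.57 in that comparison, so that 3 of the 4 pointed the other way. MMP2 at -0.77 and MMP11 at -0.69 were the next lower, and MMP14 at 0.41 and TIMP2 at 0.09 the next higher. The further MMP14 probe sets gave -0.17, 0.17 and 1.88 against untreated, and 0.39, 0.70 and 0.75 against IL-6.

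**Figure D5:**
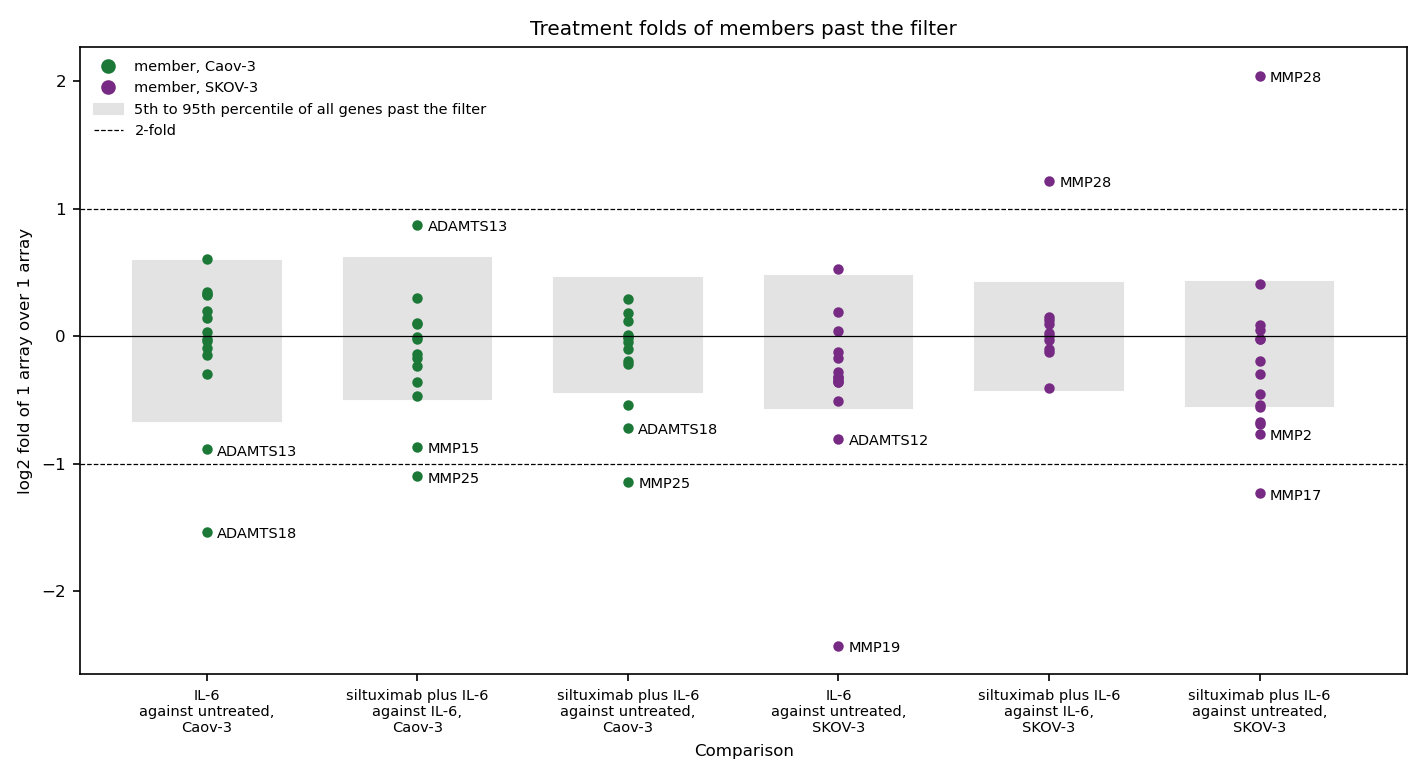
Log2 fold of 1 array over 1 array for the members past the filter of each of the 6 within-line comparisons, with the 5th to 95th percentile of all genes past it (grey) and lines at 2-fold. The TIMP genes stay within the grey band in each comparison, and the points beyond 2-fold are ADAMTS18, MMP25, MMP19, MMP28 and MMP17.

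Genes that act on or with these proteases were described from lists, again beside 70.8% of all genes called between the lines. Of 20 activators, inhibitors and docking proteins in the fit, 10 were higher in Caov-3 and 6 lower, with a median log2 difference of 0.66. TFPI2, a Kunitz inhibitor of plasmin and other proteases, had signals of 10939 to 11646 on the Caov-3 arrays and of 1.17 to 4.12 on the SKOV-3 arrays (log2 9.21). SPOCK2, a testican proteoglycan that acts on membrane-type MMPs, differed by 7.74, the membrane serine protease matriptase (ST14) by 5.08 and the broad protease inhibitor A2M by 4.13. These 4 were below the median on every SKOV-3 array and entered the fit through Caov-3 alone, and 5 of the 16 calls in this list came through 1 line, so that the values are a description. The ADAM family includes sheddases, which release surface proteins. Of 9 ADAM genes in the fit, not all of them sheddases, 2 were higher (ADAM8 2.67 and ADAM19 1.32). Another 3 were lower (ADAM9 -1.70, ADAM10 -1.12 and, named after its value was seen, ADAM17 -0.27). Of the ADAMTS-like proteins, which lack protease activity, and papilin, ADAMTSL4 was higher at 0.96 and PAPLN at 0.21 was not called.

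Of 13 matrix and surface substrates in the fit, 7 were higher in Caov-3 and 4 lower. The epithelial cadherin CDH1 differed by 7.17, the basement membrane proteins NID1 by 4.77 and FBLN1 by 4.06, and the proteoglycan BCAN by -2.03. CDH1, NID1 and FBLN1 entered the fit through Caov-3 arrays alone and BCAN through SKOV-3 arrays alone, and 5 of the 11 called substrates entered through a single line. A list of 13 transcription factors held AP-1 and ETS factors and RUNX2, which is neither and was called higher at 1.04. Of the 13, 3 were higher and 8 lower, with a median of -0.90 beside 0.07 in all genes. The largest differences were FOSL1 at -4.97, ETS1 at -4.31, FOSB at -4.04 and JUN at -1.41, of which FOSB entered through SKOV-3 alone. No gene of these 5 lists was called for any of the 3 treatment comparisons. Most epithelial markers moved with the lines: 7 of 9 were called higher in Caov-3 and 0 lower, and 3 of these calls came through 1 line. The summed signal of the 9 was 85152 to 87874 in Caov-3 and 43604 to 51559 in SKOV-3. Within it EPCAM had 22113 to 23634 in Caov-3 and 1728 to 2223 in SKOV-3, while KRT8 and KRT18 overlapped between the lines. COL1A1 and PECAM1, the 2 fibroblast and endothelium markers in the fit, were called higher in Caov-3 too, and the summed signal of that list was 5000 to 5986 in Caov-3 and 625 to 793 in SKOV-3. Most of the Caov-3 sum was COL1A1, at 3802 to 4826 in Caov-3 and 217 to 339 in SKOV-3. That of the leukocyte markers was 1029 to 1134 in Caov-3 and 472 to 916 in SKOV-3, with CD14 at 573 to 667 in Caov-3 and 77.6 to 135 in SKOV-3. CD14 was the 1 leukocyte marker called higher of 3 in the fit, 0 were called lower, and their median log2 difference was -0.43. The part of these markers in the line differences was not tested.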

How the data were processed

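RNA of 2 cell lines was measured on 6 one-colour arrays, grouped by title and description. Each deposited value is the linear signal intensity of a probe set, made by the authors with Affymetrix Expression Console and MAS5, per the submitters' processing notes, with no versions given in the sources used here. The trimmed mean of each array was 500.1.

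Probe sets with 1 symbol in the array annotation were kept (41091 of 54675), and each gene stands for its probe set with the highest mean of log2 values. The deposited intensities were not normalized further here. To each, 17.06 was added, the 20th percentile of named probe sets, before taking log2. limma 3.58.1 in R 4.3.3 was fitted with factors for treatment and line, the prior variance following a trend, and p-values were adjusted over all 12290 genes by Benjamini-Hochberg. The code of the fit was checked on simulated data with independent noise, which does not show its error rate in these data. Within a line, folds of 1 array over 1 array were given with no test. The members and lists were chosen with earlier results of these data known. Values on every array were given for TIMP1 to TIMP4 and a few proteases often studied in tumours, for members called between the lines, and for the largest folds of each within-line comparison (the 3 in each direction past the filter). Of each partner list, the 4 genes with the largest difference between the lines were named. Promoters came from RefSeq (GRCh38.p14). Other steps used Python 3.11.15 with pandas 2.3.3 and numpy 2.4.6, and figures matplotlib 3.10.9. Alternatives changed the pseudocount, the filter, the scaling, the probe sets, the prior variance and the arrays used. The filter at the median of all probe sets and the fit over single probe sets were chosen after seeing the data.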

Additional observations from a re-analysis of the deposited data

Results flagged for a closer look

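ADAMTS12, which cuts cartilage oligomeric matrix protein, moved in opposite directions with IL-6 in the lines, by more than 1.5-fold in each. In Caov-3 the log2 fold was 0.60, with signals of 129 with IL-6 and 78.9 untreated. In SKOV-3 it was -0.81, with 70.1 with IL-6 and 135 untreated. Each fold is of 1 array over 1 array, and the difference between the lines was not tested. The second probe set of ADAMTS12 gave 0.08 in Caov-3 and -0.45 in SKOV-3.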

How the results depend on the processing

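Between the lines, 10 members were called as reported (8 higher in Caov-3, 2 lower), and 10 also with the median as pseudocount, quantile or cyclic loess normalization, a constant prior variance or no treatment term. The count was 3 (2 higher, 1 lower, of 3 tested) with the filter at the 75th percentile, 6 (5 and 1, of 8) with a filter on the mean, 4 (4 and 0, of 8) with the mean of all probe sets, and 6 (4 and 2, of 7) without _x_at and _s_at probe sets, settings that test fewer members. It was 13 (8 and 5) with the filter at the median of all probe sets and 13 with no filter (5 lower). Leaving out each array gave 7 to 10 members, 5 to 8 of them higher and 2 lower, and the lowest count came without the untreated Caov-3 array. With the mean of all probe sets, TIMP2 was at -0.20 (adjusted p 0.0826) and MMP14 at 0.25 (0.313), and with no filter MMP14 had an adjusted p of 0.0622.

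Directions reversed, among values not called, for ADAMTS12 (-0.022 with quantile normalization, and -0.32 without either IL-6 array in a range up to 0.38), MMP9 (0.021 without either untreated array, in a range from -0.15), MMP25 (-0.055 without either IL-6 array, in a range up to 0.56) and ADAMTS13 (-0.046 without either siltuximab plus IL-6 array, in a range up to 0.38). By probe set, MMP14 reversed to -0.26 and TIMP2 to 1.14. Without _x_at and _s_at probe sets, MMP25 in Caov-3 turned to 0.64 against IL-6 and 0.10 against untreated, and MMP28 in SKOV-3 to -0.49 against untreated. The cause was not tested.

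No member was called for a treatment under any alternative run, although without the SKOV-3 IL-6 array limma called 435 of all genes for IL-6 against untreated and 199 for siltuximab plus IL-6 against IL-6. Leaving out an array takes that treatment's effect from the other line alone.

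Members at least 2-fold apart within a line, 1, 1 and 1 in Caov-3 and 1, 1 and 2 in SKOV-3 (IL-6 against untreated, siltuximab plus IL-6 against IL-6, and siltuximab plus IL-6 against untreated), became 6, 5 and 7 in Caov-3 and 3, 6 and 12 in SKOV-3 with no filter. They became 0 in each with the median as pseudocount or the filter at the 75th percentile. With the mean of all probe sets they were 0, except 1 in SKOV-3 against untreated, and without _x_at and _s_at probe sets 0, except 1 in Caov-3 with IL-6. Siltuximab plus IL-6 against IL-6 in Caov-3 gave 2 with quantile and 2 with cyclic loess normalization, and against untreated 0 with loess. In SKOV-3 against IL-6, the filter at the median of all probe sets gave 2. Scaling moved the split of all genes: of those 2-fold apart in Caov-3, 27.6% were higher with IL-6 against untreated (47.5% with quantile, 43.8% with loess) and 76.5% with siltuximab plus IL-6 against IL-6 (62.9% and 65.8%), and that same comparison in SKOV-3 had 47.9% (58.3% and 54.8%).

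With 1 array per group, differences within a line have no measured error, and no detection calls were used. The line comparison has treatment as a block, and without it 10 members were called too. The treatment block pairs the arrays of the lines, and with 1 array per group there were no replicates for a further block.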
